A study of Danio rerio with 21 samples.

Results

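The cytosolic ribosomal protein genes of the zebrafish telencephalon were taken as a group, chosen by name alone: every gene whose zebrafish name starts with rpl or rps followed by a digit, or with rplp, without the rps6k kinases. The rule found 84 of the 32057 gene IDs in the count files, 37 with a small subunit name and 47 with a large subunit name. They carry 80 names, because some names, among them RPS26 and RPL5, stand for a pair of IDs. The name table spells 71 of the 84 in capitals, as the human counterpart, and that spelling is kept here. By their names RPL7L1, RPL22L1 and rps27l are relatives of ribosomal proteins, and rps19bp1 is a binding protein of one. Without these 4 of the 84 each library's share moved by less than its group's SD.

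Ribosomal proteins coat the ribosomal RNAs of the small subunit, which reads the mRNA, and of the large subunit, which joins the amino acids. Vertebrate cells make them in matched amounts, and their mRNAs begin with a terminal oligopyrimidine (TOP) tract through which TOR kinase signalling sets how strongly they are translated. In the brain their mRNAs are abundant in every cell type, and free ribosomal proteins such as RPL5 bind Mdm2 and so connect the making of ribosomes to p53.

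Adult zebrafish of the AB wild-type strain were kept for 36 days beside a caesium gamma source or unexposed, and the telencephalon was sequenced from its mRNA with a stranded kit. The groups were 0.05 mGy/h (6 libraries) with the 6 control libraries of batch 2, and 0.5 mGy/h (3 libraries) and 5 mGy/h (3 libraries) with the 3 control libraries of batch 1. Each library was a pool of several dissected telencephalons, with the sexes balanced over each condition, so the spread between libraries is that between pools of fish, and in such bulk tissue fewer cells of a type and less RNA per cell cannot be told apart. Each dose rate was set against the controls of its own batch, because batch and dose rate cannot be told apart across batches. TBR1, a transcription factor of pallial neurons, stood between 83.8 and 220 CPM (counts scaled to a common library size) in every library. The pituitary hormone gh1 had no count in any, while the pituitary marker list as a whole summed to 1.18 to 2.74 CPM.

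Between 19.03 and 71.6 M reads a library were counted on genes, so that 3 counts, the floor used here, equalled 0.0419 to 0.158 CPM. A pair of libraries stood apart from their group mates over all genes. Correlations of log2 CPM between group mates ranged from 0.977 to 0.990 over 32 pairs, and from 0.830 to 0.936 over the 7 pairs that held control batch 2 replicate 6 or 5 mGy/h replicate 1. Control batch 2 replicate 6 had the highest share of unmapped reads, 8.66% against 3.85 to 5.76% in the other 20 libraries, and the lowest share of reads outside annotated genes, 17.3% against 23.5 to 26.2%. In 5 mGy/h replicate 1 these shares were 4.04% and 24.1%, within the range of the others. Results that rest on them are therefore given with and without the library concerned.

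The ribosomal protein genes took 1.33 to 2.09% of all gene counts in 20 of the 21 libraries. Control batch 2 replicate 6 stood outside that range, with 5.12%. In batch 2 the share was 1.63, 1.58, 1.70, 1.56, 1.49 and 1.66% at 0.05 mGy/h, against 1.56, 1.45, 1.57, 1.43, 1.65 and 5.12% in the controls. The means were 1.60 ± 0.0732% (SD, n = 6) at 0.05 mGy/h and 2.13 ± 1.47% (SD, n = 6) in the controls, and the controls averaged 1.53 ± 0.0890% (SD, n = 5) without replicate 6. With that library the control mean lay above every irradiated library, and without it the irradiated and control ranges overlapped around nearly equal means. In batch 1 the controls had shares of 1.88, 1.69 and 1.70%, the libraries at 0.5 mGy/h 1.54, 1.74 and 1.72%, and those at 5 mGy/h 2.09, 1.33 and 1.71%. The means were 1.76 ± 0.108% in the controls, 1.67 ± 0.112% at 0.5 mGy/h and 1.71 ± 0.383% at 5 mGy/h (SD, n = 3 each), within 1 SD of each other. The 5 mGy/h libraries held both the highest and the lowest share of batch 1, and without replicate 1 they were at 1.33 and 1.71%. The small subunit genes took between 0.712 and 0.808 times the counts of the large subunit genes in every library, the lowest value being that of control batch 2 replicate 6, so both subunits moved together.

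**Figure D1:**
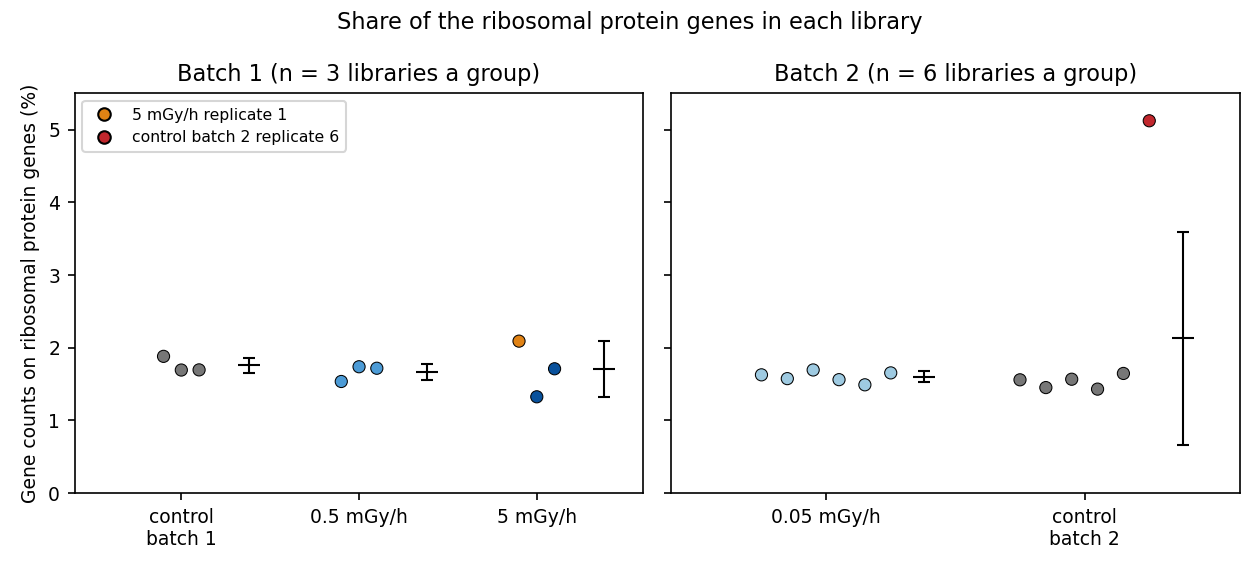
Share of all gene counts that fell on the 84 ribosomal protein genes (y axis, percent) in each library, by group; horizontal lines are group means and bars are SDs (n = 3 libraries a group in batch 1, 6 in batch 2). Control batch 2 replicate 6 stands at 5.12%, and 5 mGy/h replicate 1 at 2.09% is the highest of the other 20 libraries.

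Control batch 2 replicate 6 had higher levels of nearly every ribosomal protein gene than the other controls of its batch. Of the 81 members that passed the count filter in batch 2, 79 were above the mean of replicates 1 to 5, with a median log2 ratio of 2.01 against 0.02 over all 19454 genes tested. In 78 of the 81 the library lay above every one of its 5 mates, where 42.5% of all genes did, and in 78 it was at least 2-fold above their mean, where 17.7% of all genes were. The genes of the small subunit had a median log2 ratio of 2.05 (36 genes) and those of the large subunit 1.99 (45 genes). RPL3, which lies near the peptidyl transferase centre and had the highest mean CPM of the members, stood at 2877 CPM in replicate 6, against 592 to 750 CPM in replicates 1 to 5. The largest ratios belonged to RPS12, a protein of the small subunit's beak, with 207 CPM against 9.41 to 14.6 CPM, and to one RPS26 copy (ENSDARG00000030408), a protein at the mRNA exit channel, with 284 CPM against 12.8 to 23.1 CPM. At log2 ratios of 4.04 and 4.03 these were about 16.5-fold and 16.4-fold above their mates.

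In 5 mGy/h replicate 1 the members were higher as well, by less and with more exceptions. Of 82 members that passed the filter in batch 1, 66 were above the mean of replicates 2 and 3, with a median log2 ratio of 0.52 against 0.02 over all 21307 genes tested. The library lay above both mates for 60 of the 82, where 44% of all genes did, and below both for 7, where 41.9% did. On that log2 scale 1 member was at least 2-fold above their mean, where 0.831% of all genes were. It was RPL13A (425 CPM against 174 and 254 CPM), which in mammals also takes part in silencing of inflammatory mRNAs. RPS14, the small subunit protein whose gene is lost in the human 5q- syndrome, had 650 CPM in replicate 1, against 381 and 490 CPM in replicates 2 and 3. Replicate 2 of the same group was low: its median log2 ratio to its mates was -0.53, and 3 of 81 members were above them. Replicate 3 lay between them, with a median of -0.03 and 38 of 81 members above its mates.

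Other parts of the translation machinery were higher in these libraries too. The 74 tested mitochondrial ribosomal proteins, which build the separate ribosome of the mitochondria, were all above the mates in control batch 2 replicate 6 with a median log2 ratio of 1.48, and 67 of them were in 5 mGy/h replicate 1 with a median of 0.49. Cytosolic ribosomal proteins that the name rule misses, 4 genes that include FAU and RACK1, had medians of 2.30 in control batch 2 replicate 6 and 0.59 in 5 mGy/h replicate 1. Elongation factors and other mRNAs of the TOP class (24 genes) had medians of 1.12 and 0.30 in these libraries, and ribosome biogenesis factors (39 genes) 0.83 and 0.40. The genes of the TOR pathway (24 genes) had medians of -0.22 and 0.00, and those of RNA polymerase I (13 genes), which transcribes the rRNA, 0.39 and 0.23. Among these lists the medians were highest for genes whose products are parts of a ribosome and lowest for the TOR pathway. Other lists were high in control batch 2 replicate 6 as well, with medians of 0.91 for proliferation genes (13 of 13 above the mates) and 1.02 for heat shock genes (12 of 13).

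**Figure D2:**
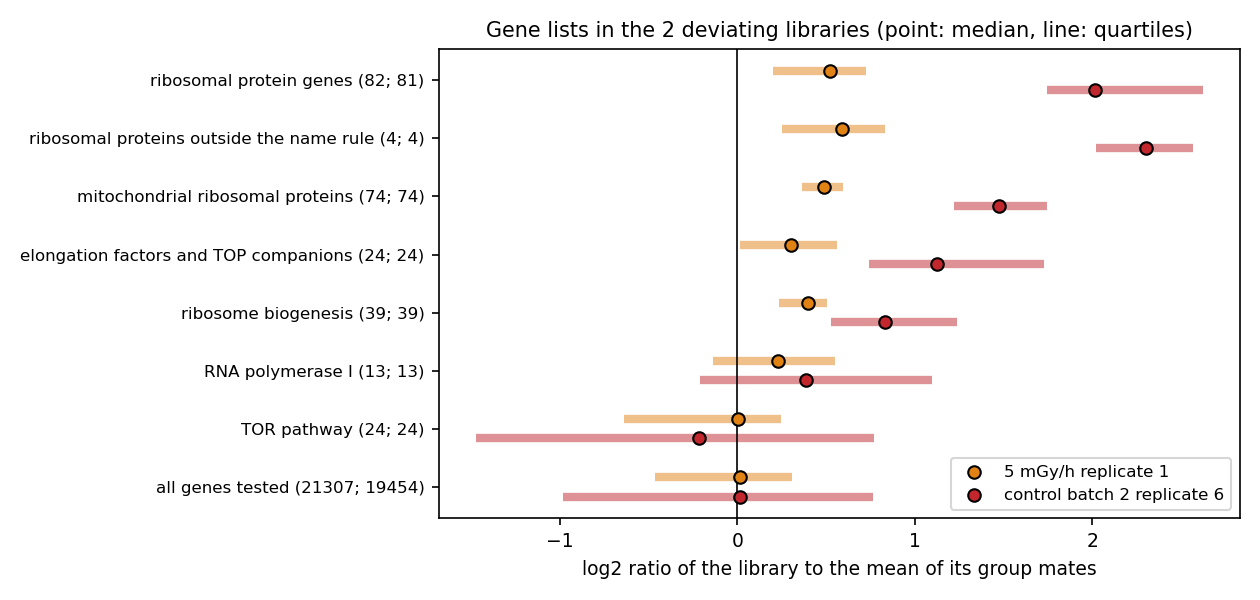
Median log2 ratio (points) and quartiles (lines) of 5 mGy/h replicate 1 (orange) and control batch 2 replicate 6 (red) to the mean of their group mates, for 8 lists of genes; the numbers in brackets are the genes tested in batch 1 and in batch 2. The cytosolic ribosomal protein genes stand at 0.52 and 2.01, and all genes tested at 0.02 in both.

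Marker lists of several cell types moved in the same libraries as well, and their part in the ribosomal protein levels was not tested. Of the preoptic and hypothalamic markers 7 of 7 tested were higher in control batch 2 replicate 6, with a summed level of 1560 CPM against 124 to 218 CPM in its mates, most of it the nonapeptide gene oxt at 1254 CPM. The red blood cell markers (4 of 6 higher) summed to 363 CPM in that library against 88.7 to 149 CPM. Most of that sum was the haemoglobin gene hbaa1 at 302 CPM, and the 2 SLC4A1 IDs were lower. The radial glia markers (9 of 9 higher) summed to 8651 CPM against 4267 to 5243 CPM. In the oligodendrocyte markers 6 of 7 were higher, so that here too most of the list moved one way. They summed to 1244 CPM against 643 to 828.8 CPM. The microglia markers summed to 814 CPM against 205 to 296 CPM, although 4 of 9 were higher and the median log2 ratio was -0.13. The pineal markers (7 of 7 higher) summed to 182 CPM against 8.83 to 117 CPM. By contrast the endothelium (3 of 6 higher) lay below its mates, at 111 CPM against 128 to 143 CPM.

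In 5 mGy/h replicate 1 the sums of these lists also lay outside the range of both mates, some above and some below it. The red blood cell markers (6 of 6 higher) summed to 269 CPM, against 158 and 166 CPM in its mates. The radial glia markers (10 of 11 higher) summed to 6686 CPM against 5177 and 5658 CPM, and the oligodendrocyte markers (7 of 7 higher) to 1111 CPM against 1065 and 679 CPM. The preoptic and hypothalamic sum was lower than in the mates, at 228 CPM against 249 and 405 CPM, and that of the microglia markers was 224 CPM against 217 and 183 CPM, with 2 of 9 higher. The pineal markers (1 of 8 higher) summed to 300.0 CPM against 472 and 682 CPM, and the endothelial markers (3 of 6 higher) to 138 CPM against 170.0 and 155 CPM.

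The neuronal markers as a list did not move one way. Of the 17, 9 were higher in control batch 2 replicate 6, with a median log2 ratio of 0.12 and a sum of 6702 CPM against 5599 to 6180 CPM in its mates. In 5 mGy/h replicate 1 it was 10 that were higher, with a median of 0.14 and a sum of 5795 CPM against 6410 and 6143 CPM. TMM scaling raised the CPM of control batch 2 replicate 6, whose mitochondrially encoded genes summed to 123514 CPM at 9.82% of gene counts. Marker sums by library size alone are not given, so the side of its mates on which its neuronal sum lies may depend on the scaling. Single neuronal genes went far in both directions, and those named here were chosen after their values were seen. One ID of the synaptic gene SNAP25 had 3108 CPM in control batch 2 replicate 6 against 1753 to 1872 CPM, and 2287 CPM in 5 mGy/h replicate 1 against 2058 and 2034 CPM. TBR1 was also higher in both, with 185 CPM in control batch 2 replicate 6 against 87.7 to 133 CPM, and 220 CPM in 5 mGy/h replicate 1 against 160 and 165 CPM. On the lower side one SLC17A6 gene, a vesicular glutamate transporter, had 17.5 CPM in control batch 2 replicate 6 against 427 to 488 CPM, and 5.86 CPM in 5 mGy/h replicate 1 against 293 and 384 CPM. The neuronal RNA-binding protein gene ELAVL3 had 88.4 CPM in control batch 2 replicate 6 against 471 to 606 CPM, and 381 CPM in 5 mGy/h replicate 1 against 761 and 702 CPM. The mitochondrially encoded genes took 9.82% of gene counts in control batch 2 replicate 6 and 9.20% in 5 mGy/h replicate 1, against 6.71 to 8.86% in the other 19 libraries.

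The ribosomal protein genes that were highest in one of the deviating libraries tended to be the lowest in the other. Across the 81 members tested in both batches, the log2 ratios in control batch 2 replicate 6 and in 5 mGy/h replicate 1 had a Spearman rho of -0.60 and a Pearson r of -0.57, while across all 19325 genes tested in both batches rho was 0.73. These correlations are descriptions across genes, which share the same libraries and are not independent replicates. The inverse relation was present among the 36 small subunit genes (rho -0.61) and the 45 large subunit genes (rho -0.57), and without the 6 members of widest spread (rho -0.67, 75 genes). Among the 74 mitochondrial ribosomal proteins rho was -0.15, and among the 39 biogenesis factors 0.29.

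The 15 members that were lower in 5 mGy/h replicate 1 than the mean of its mates had a median log2 ratio of 3.14 in control batch 2 replicate 6. It was 1.96 for the 66 that were higher than that mean. They included RPS26 (ENSDARG00000030408), RPS15, RPS3A, RPS16 and RPS6 of the small subunit and RPLP1, RPL12, RPL24, RPL21, RPL15, RPL6, RPL31, rplp2l and RPL13 of the large subunit. Not all of them lay below both mates, as RPL13 had 174 CPM in 5 mGy/h replicate 1, against 143 and 244 CPM. RPS26 had 25.3 CPM in 5 mGy/h replicate 1, against 37.8 and 44.7 CPM in its mates. RPS15, a protein of the small subunit's head, had 96.4 CPM there against 132 and 168 CPM, and 234 CPM in control batch 2 replicate 6 against 18.3 to 43.5 CPM. The same 15 had other values in contrasts whose groups held neither library: at 0.5 mGy/h against its controls their median log2 fold change was -0.37, against -0.04 for the other 66, and at 0.05 mGy/h, with control replicate 6 left out, it was 0.27 against 0.05. Their levels were also higher in batch 1 than in batch 2, by a median of 0.42 on the log2 scale, against 0.07 for the other 66. The 15 were picked out by their ratio in 5 mGy/h replicate 1, so their values are given with no test.

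**Figure D3:**
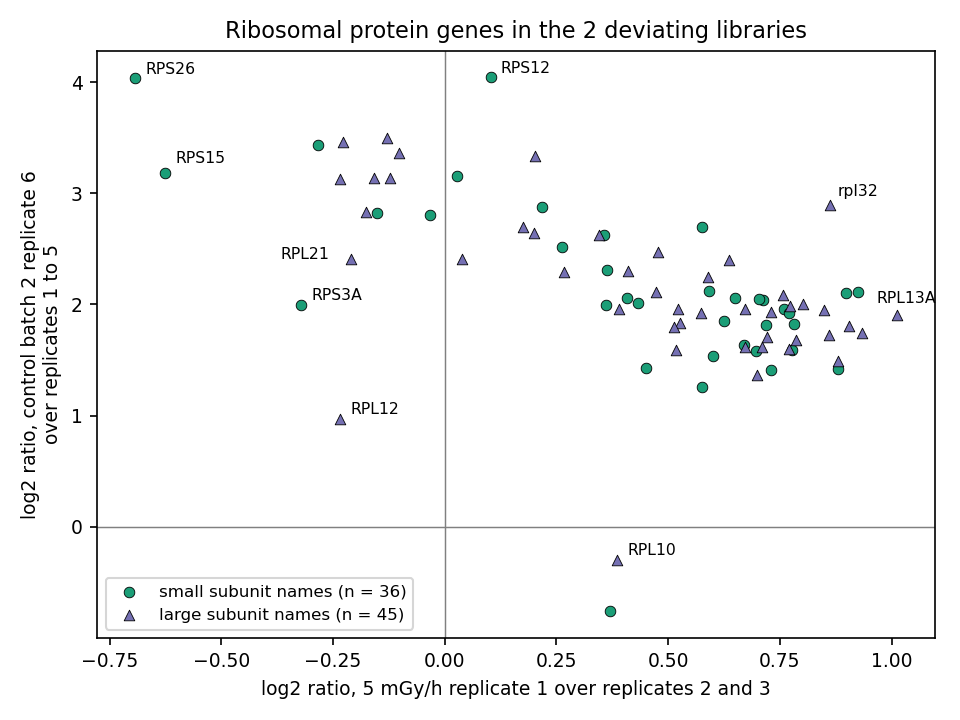
Log2 ratio of each of 81 ribosomal protein genes to its group mates in 5 mGy/h replicate 1 (x axis) and in control batch 2 replicate 6 (y axis), circles for small and triangles for large subunit names. The 15 genes left of zero on the x axis have a median of 3.14 on the y axis, against 1.96 for the 66 to its right, and 2 genes, RPL10 among them, lie below zero on the y axis.

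At 0.05 mGy/h 0 of 81 tested ribosomal protein genes passed the test (edgeR quasi-likelihood, FDR under 0.05 and at least 1.5-fold), where 0.00514% of all genes did. DESeq2 called 0 of the 37 members to which it gave a p (0.0549% of all genes). The lowest FDR by edgeR was 0.75. At an unadjusted p under 0.05 there was 1 member on the lower side (2.95% of all genes) and 0 on the higher (1.32%). In 0 members were the 6 irradiated libraries all above (0.314% of all genes) or all below (0.54%) the 6 controls. With all 12 libraries 1 of the 81 had a log2 fold change above 0, where 48.7% of all genes had one, and the median was -0.56 against -0.01 over all genes. Without control batch 2 replicate 6 the median was 0.09, 55 of 81 members were positive and 0 of 81 passed the test (0.041% of all genes), with 5 at a p under 0.05 on the higher side (3.78% of all genes) and 1 on the lower (4.16%). The sign of the median in this comparison thus turned with 1 library. With the replicate number as a block the median was -0.23 and 0 of 81 passed, where 0 of all 19454 genes did.

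The members named here for their low p on the lower side at 0.05 mGy/h were all higher in replicate 6 than in any other control. RPS12 ranged from 10.9 to 19.3 CPM at 0.05 mGy/h, against 9.41 to 14.6 CPM in 5 of the controls and 207 CPM in replicate 6, and its log2 fold change was -1.57 (SE 0.766, edgeR FDR 0.75) with that library and 0.29 without it. RPL5 (ENSDARG00000020197), which binds the 5S rRNA, and RPL22L1, the relative of RPL22, had log2 fold changes of -0.68 and -0.65 with all libraries and of -0.12 and -0.14 without replicate 6. On the higher side 1 member was positive, RPL10, at 1.61 (SE 0.887, FDR 0.75), and it is described below with the genes of widest spread. Without replicate 6 the lowest p belonged to rplp2, an acidic protein of the stalk that recruits elongation factors, which ranged from 79.3 to 97.7 CPM at 0.05 mGy/h against 54.5 to 88.7 CPM in control replicates 1 to 5 (log2 fold change 0.30, SE 0.112, FDR 0.55).

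At 0.5 mGy/h 0 of 82 tested members passed the test, where 0.00469% of all genes did, and the lowest FDR was 0.9999. DESeq2 called 0 as well (0.0394%). Before adjustment 11 members had a p under 0.05, all lower than the controls, where 1.43% of all genes had one on the lower side, and 0 members had one on the higher side (0.939%). In 23 of the 82 all 3 irradiated libraries lay below all 3 controls, where 6.65% of all genes did, and in 0 they lay above (4.42%). The median log2 fold change over the 82 was -0.05, with 22 positive where 53.2% of all genes were, against a median of 0.01 over all genes. Without 0.5 mGy/h replicate 1, the lowest of its group, the median was 0.00, and 3 members had a p under 0.05, all lower (1.61% of all genes), while 0 were higher (1.27%) and 0 passed (0.00463%). Without control batch 1 replicate 1, the highest of its group, the median was -0.01, with 2 lower (0.873%) and 1 higher (1.64%). The count on the lower side was 5 without 0.5 mGy/h replicate 2 (0.94% of all genes) and 2 without replicate 3 (0.78%). It was 3 without control batch 1 replicate 2 (0.816%) and 10 without replicate 3 (1.26%). Each of these fits kept 2 libraries in one group, and the count of 11 fell below 6 in all but the last of the 6.

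The lowest p at 0.5 mGy/h belonged to RPL15, a large subunit protein deep in the rRNA, with 83.4, 83.9 and 78.8 CPM, against 110, 106 and 96.9 CPM in the controls. The groups did not overlap, and the log2 fold change was -0.35 (SE 0.105, FDR 0.9999 over all genes, edgeR). RPL6 had 178, 162 and 155 CPM at 0.5 mGy/h, against 230, 222 and 192 CPM in the controls, a log2 fold change of -0.38 (SE 0.121). RPS6, the substrate of S6 kinase downstream of TOR, had 155, 159 and 149 CPM against 218, 202 and 179 CPM (log2 fold change -0.37, SE 0.131), and RPS26 (ENSDARG00000030408) 32.9, 28.3 and 24.8 CPM against 45.4, 40.5 and 38.5 CPM (log2 fold change -0.53, SE 0.203). In each of these genes every irradiated library was below every control library, and none passed the test over all genes. With each library left out in turn the log2 fold changes stayed between -0.40 and -0.31 for RPL15, -0.45 and -0.33 for RPL6, -0.44 and -0.31 for RPS6, and -0.64 and -0.44 for RPS26. Of the 11 members, 9 were among the 15 that were lower in 5 mGy/h replicate 1, which is 81.8% of the 11 and 60% of the 15. The other 2 were RPS12 and rpl7a. The 15 are part of the 81 members tested in both batches. Members share their libraries and are not independent, so the overlap is given with no test. On the higher side the lowest p values included those of RPL21, RPS3A and rps27.2, with log2 fold changes of 0.45, 0.63 and 0.10, and all 3 overlapped the controls.

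At 5 mGy/h 0 of 82 members passed the test, where 0.00469% of all genes did, the lowest FDR was 0.928, and 0 had a p under 0.05 in either direction, where 3.26% of all genes had one on the higher side and 2.5% on the lower. DESeq2 called 0 as well (0.315% of all genes). The median log2 fold change was -0.04, with 25 of 82 positive where 55.6% of all genes were, against a median of 0.03 over all genes. The value depended on which library was left out: without 5 mGy/h replicate 1 the median was -0.23 and 5 of 82 were positive, without replicate 2 it was 0.12 and 60 were positive, and without control batch 1 replicate 1 it was 0.00 and 43 were positive. Without 5 mGy/h replicate 1, 30 of the 82 had a p under 0.05, all lower, where 10% of all genes had one on the lower side and 14.1% on the higher, and 0 of 82 passed the test, where 6.34% of all genes did (1375 genes). The lowest FDR among the members was then 0.0608, and the largest of their log2 fold changes in size was 0.77, that of RPL10. This was a fit of 8 libraries in which 5 mGy/h kept 2. Against the mean of the batch 1 controls, the members' median log2 ratio was -0.43 in replicate 2 and -0.07 in replicate 3. In replicate 1, which was left out, it was 0.32.

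RPL17, which lines the exit tunnel of the large subunit, had the lowest p at 5 mGy/h, with 268, 209 and 261 CPM against 288, 271 and 272 CPM in the controls. It was the 1 member whose groups did not overlap, where 4.95% of all genes were lower and 3.94% higher without overlap, and its log2 fold change was -0.17 (SE 0.0957, edgeR FDR 0.928), with -0.24 without 5 mGy/h replicate 1 and -0.07 without replicate 2. RPS16, with 114, 117 and 136 CPM against 138, 145 and 128 CPM, RPS6 and rplp2l had log2 fold changes of -0.16, -0.18 and -0.17. Without 5 mGy/h replicate 1 these were -0.12, -0.17 and -0.13, without replicate 2 they were -0.13, -0.07 and -0.06, and without replicate 3 they were -0.27, -0.35 and -0.37. On the higher side rpl32, RPL21 and RPL5 (ENSDARG00000015862) had log2 fold changes of 0.83, 0.35 and 0.25, and every one overlapped the controls. Without 5 mGy/h replicate 1 they were 0.52, 0.41 and -0.11. In that fit the lowest p belonged to RPL7L1, the relative of RPL7 that acts in making the large subunit, with 25.3 and 28.5 CPM in 5 mGy/h replicates 2 and 3, against 33.1, 31.2 and 34.5 CPM in the controls (log2 fold change -0.30, SE 0.0794, FDR 0.0608). RPS29 had the most negative log2 fold change of that fit, -0.52 (SE 0.177, FDR 0.125), with 52.3 and 77.0 CPM against 102, 88.5 and 85.9 CPM.

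**Figure D4:**
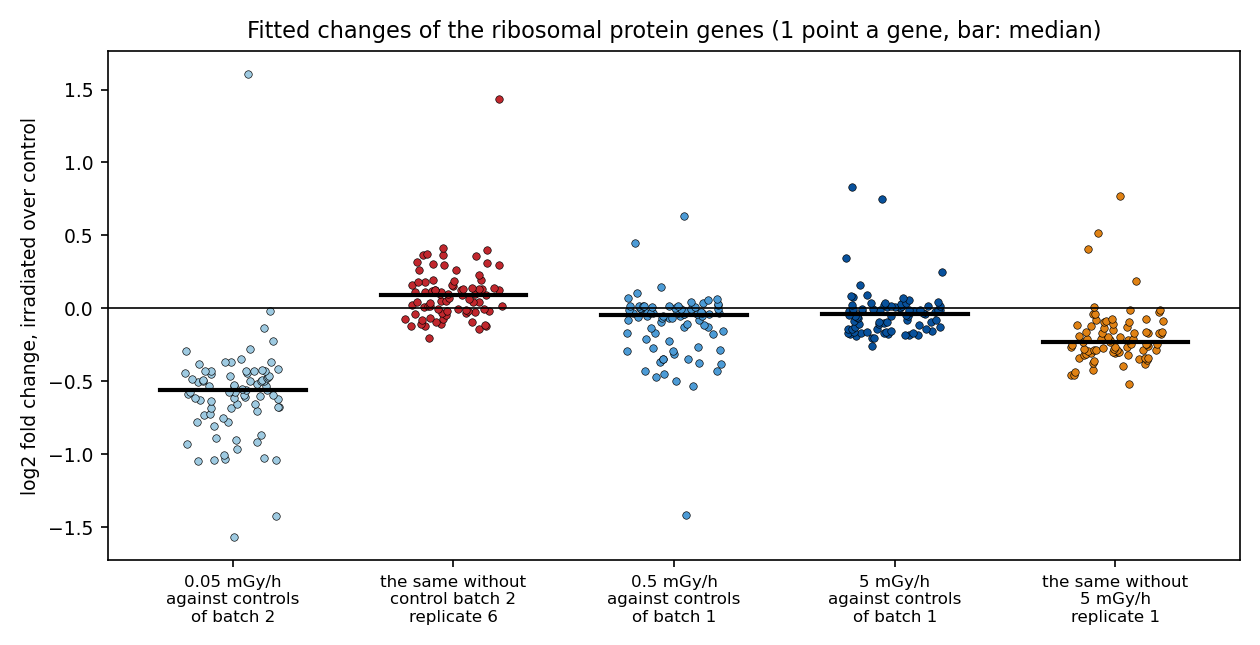
Fitted log2 fold change of each tested ribosomal protein gene (points, 81 at 0.05 mGy/h and 82 at 0.5 and 5 mGy/h) against the controls of its batch, with the median as a bar, and the same at 0.05 mGy/h without control batch 2 replicate 6 and at 5 mGy/h without replicate 1. From left to right the medians are -0.56, 0.09, -0.05, -0.04 and -0.23.

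Set directly against 0.5 mGy/h, 5 mGy/h gave 0 of 82 members past the test (0.00469% of all genes passed), a median of 0.02 and 53 positive log2 fold changes (56.3% of all genes). RPL15 was the 1 member with an unadjusted p under 0.05 (2.81% of all genes on the higher side, 2.43% on the lower) and without overlap (4.35% higher, 4.96% lower), with an FDR of 0.938 by edgeR, at 91.5, 92.4 and 116 CPM at 5 mGy/h against 83.4, 83.9 and 78.8 CPM at 0.5 mGy/h. Without 5 mGy/h replicate 1 the median was -0.20, 22 members had a p under 0.05 on the lower side (8.71% of all genes) and 3 on the higher (13.6%), and 0 passed (5.47%). The test of whether the change at a dose rate differed between batches was an interaction term over all 21 libraries. It passed for 0 of 82 members at 5 against 0.05 mGy/h and for 0 of 82 at 0.5 against 0.05 mGy/h. In both, 0 of all 21293 genes tested passed, so these zeros are not particular to the members. At an unadjusted p under 0.05 there were 0 members in both (4.42% and 2.03% of all genes).

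The 3 members with the highest mean CPM were RPL3, RPS14 and RPS9, a small subunit protein that bears on reading accuracy in yeast. RPL3 ranged from 567 to 780 CPM with a median of 737 CPM at 0.05 mGy/h, and from 592 to 2877 CPM with a median of 677 CPM in the controls. RPS14 had 564, 499 and 513 CPM in the controls of batch 1, 491, 545 and 533 CPM at 0.5 mGy/h, and 650, 381 and 490 CPM at 5 mGy/h. RPS9 had 519, 461 and 465 CPM in those controls, 433, 468 and 495 CPM at 0.5 mGy/h, and 627, 331 and 481 CPM at 5 mGy/h. In both genes the 5 mGy/h libraries spanned the whole control range.

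In the stalk of the large subunit, which brings elongation factors to the ribosome, no gene passed the test at 0.5 mGy/h. RPLP0, its base, had 388, 371 and 336 CPM in the controls of batch 1, 300, 323 and 289 CPM at 0.5 mGy/h, and 350, 254 and 377 CPM at 5 mGy/h. At 0.5 mGy/h all 3 libraries were below the controls in RPLP0, RPLP1, rplp2 and rplp2l, with log2 fold changes of -0.27, -0.38, -0.32 and -0.35, where 6.65% of all genes were lower without overlap. At 0.05 mGy/h without control replicate 6 the same 4 genes were at 0.20, 0.23, 0.30 and 0.37, on the other side of zero. RPL12, which sits with RPLP0 at the stalk base, stood at only 0.240 to 1.29 CPM over all libraries, a level at which its ratios rest on few counts. At 0.5 mGy/h it had 0.744, 0.639 and 0.698 CPM, against 0.683, 0.777 and 0.637 CPM in the controls, so its groups overlapped.

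Several copies that share a protein number did not keep a constant ratio in the deviating libraries. STAR assigned only reads with 1 place in the genome, so counts of near-identical copies are uncertain. In batch 2 RPS26 (ENSDARG00000030408) stood at 0.872 times the CPM of the other RPS26 ID (ENSDARG00000037071) in control batch 2 replicate 6, and at 0.202 to 0.492 times in the other libraries. In batch 1 it stood at 0.268 times in 5 mGy/h replicate 1, below the 0.335 to 0.544 times of the other libraries. Over the other 19 libraries of both batches RPL5 (ENSDARG00000020197) stood at 0.957 to 1.79 times RPL5 (ENSDARG00000015862). It stood at 1.97 times in control batch 2 replicate 6 and at 1.02 times in 5 mGy/h replicate 1. The gene rps27.2 stood at 1.58 to 1.98 times rps27.1, and at 1.42 and 1.75 times. By contrast RPL22 over RPL22L1 (2.58 to 3.804) and RPL7 over RPL7L1 (11.99 to 18.2) stayed inside their range in both, at 2.61 and 17.0 in control batch 2 replicate 6 and at 2.99 and 13.6 in 5 mGy/h replicate 1.

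Most members varied little between pools of the same group once the 2 deviating libraries were set aside. The within-group SD of log2 CPM was the root of the plain mean of the group variances, each group counted alike whatever its number of libraries. It had a median of 0.19 over the 81 members tested in both batches and was under 0.2 for 51 of them. Above 0.5 there were 4: RPL10, RPL21, rpl32 and RPS3A. For RPS3A the SD was 0.89 at 5 mGy/h and 0.88 in the controls of batch 1, but 0.21 in both groups of batch 2. The gene rps27a, which encodes a ribosomal protein fused to ubiquitin, was among the steadiest, with an SD of 0.08. The likeness of each member to the mean of the others over the 21 libraries had a median Pearson r of 0.92, with 49 of 81 above 0.9. Over the 20 libraries without control batch 2 replicate 6 the median r was 0.62 and 1 member was above 0.9. These 20 libraries mix both batches, between which some members differ in level. Within batch 1 alone, with 5 mGy/h replicate 1 kept in, r was above 0.9 for several members, RPL4 (0.97) and RPS19 (0.97) among them. It was as low as -0.26 (RPL21). In batch 2 without control replicate 6 it ran from -0.45 (rps19bp1) to 0.87 (RPL11). Batch 1 kept its deviating library and batch 2 did not, so the ranges of r are not like for like. These are descriptions over libraries of different groups and batches.

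RPL10, which joins the large subunit late and completes it, was high in some pools and low in others of the same group. It had 4.07, 85.0 and 3.87 CPM in the controls of batch 1, 28.2, 3.29 and 3.18 CPM at 0.5 mGy/h, and 49.5, 15.5 and 91.2 CPM at 5 mGy/h. At 0.05 mGy/h it ranged from 1.17 to 41.0 CPM with a median of 18.9 CPM, and in the controls of batch 2 from 0.591 to 17.9 CPM with a median of 1.86 CPM. Under 5 CPM there were 9 of the 21 libraries, 4 in batch 1 and 5 in batch 2, at 14 to 250 counts, and the other 12 were at 14.3 to 91.2 CPM. The low class held 2 of 3 controls of batch 1, 2 of 3 libraries at 0.5 mGy/h and 0 of 3 at 5 mGy/h, and in batch 2 it held 1 of 6 libraries at 0.05 mGy/h against 4 of 6 controls. These classes were drawn after the values were seen and carry no test.

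RPL21 was high in 7 libraries of batch 2 and low in the other 5. At 0.05 mGy/h it had 6.54, 17.6, 0.197, 11.99, 12.8 and 0.215 CPM, against 17.0, 0.223, 0.338, 0.232, 24.8 and 14.8 CPM in the controls, where the 5 low libraries held 4 to 9 counts each. In batch 1 it stood between 44.7 and 94.3 CPM in all 9 libraries, above every library of batch 2. The gene rpl32 had 120, 161 and 63.8 CPM in the controls of batch 1, 118, 51.1 and 176 CPM at 0.5 mGy/h, and 282, 109 and 222 CPM at 5 mGy/h. In batch 2 it ranged from 42.4 to 126 CPM at 0.05 mGy/h, against 10.9 to 15.2 CPM in 3 controls and 152 to 287 CPM in the other 3. RPS3A, near the mRNA exit, had 8.60, 25.6 and 26.1 CPM in the controls of batch 1, 23.4, 29.4 and 40.7 CPM at 0.5 mGy/h, and 14.3, 11.4 and 28.0 CPM at 5 mGy/h. Its level was 36.1 to 49.9 CPM at 0.05 mGy/h, against 37.6 to 53.2 CPM in control replicates 1 to 5 of batch 2, above most of batch 1.

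Between batches 66 of the 81 members differed by less than 0.5 on the log2 scale, 12 were higher by more in batch 1 and 3 in batch 2, with both deviating libraries left out. TMM factors were found in each batch apart with those libraries in, so these counts rest on scalings that the batches do not share. RPS15 was among the 12, at 88.8 to 168 CPM in batch 1 and 18.3 to 53.4 CPM in batch 2. Among unexposed controls alone RPS15 had 162, 155 and 128 CPM in batch 1, against 18.3 to 43.5 CPM in control replicates 1 to 5 of batch 2. For RPS15 the difference was thus present without irradiation. The batches also differ in sequencing depth and fish, whose parts cannot be told apart, and the part of dose rate was not tested over the members.

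**Figure D5:**
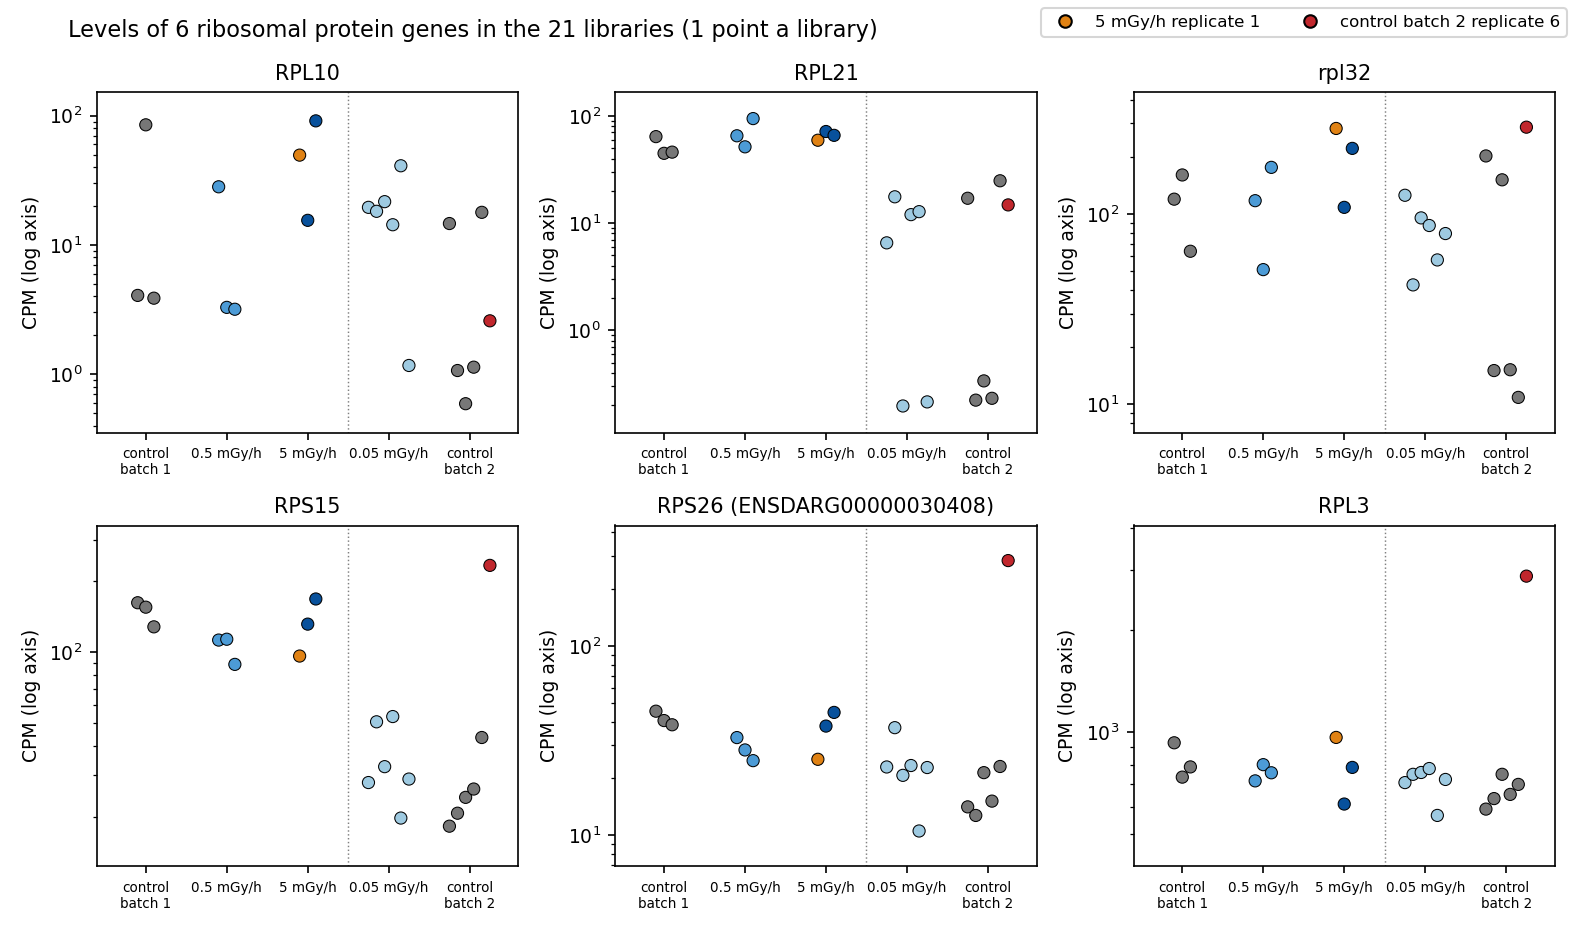
CPM (log axis) of RPL10, RPL21, rpl32, RPS15, one RPS26 copy and RPL3 in each of the 21 libraries, 1 point a library, with batch 1 left of the dotted line and batch 2 right of it. RPL10 and RPL21 fall into high and low libraries inside a group, RPS15 is higher in batch 1 than in batch 2 apart from control batch 2 replicate 6, and RPL3 lies between 567 and 963 CPM in 20 libraries and at 2877 CPM in control batch 2 replicate 6.

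Some members had few counts or none. RPL9 had 0 counts in all 21 libraries on either strand, which allows at most 3 counts or 0.158 CPM in the shallowest, and it passed the filter in neither batch. RPL26 had 0 to 18 counts a library and passed only in batch 1. The low counts say only that few reads were assigned to these IDs.

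The wider translation pathway gave no call either. None of the 4 ribosomal proteins outside the name rule, 24 elongation and TOP genes, 39 biogenesis factors, 13 genes of RNA polymerase I, 24 TOR pathway genes and 74 tested mitochondrial ribosomal proteins passed the test at any of the 3 dose rates, by edgeR with FDR under 0.05 and 1.5-fold. Of all genes only 0.00514% passed at 0.05 mGy/h and 0.00469% at 0.5 and at 5 mGy/h, so the lack of calls is not particular to these lists. Without control batch 2 replicate 6 none of these genes passed at 0.05 mGy/h, where 0.041% of all genes did. Without 5 mGy/h replicate 1 there was 1 call at 5 mGy/h, among the elongation and TOP genes, where 6.34% of all genes passed. At 0.5 mGy/h 5 of the 24 elongation and TOP genes, 1 of the 39 biogenesis factors and 0 of the 74 mitochondrial ribosomal proteins had an unadjusted p under 0.05 on the lower side, where 1.43% of all genes had one. At 0.05 mGy/h the log2 fold changes of the mitochondrial ribosomal proteins centred on a median of -0.46, and on -0.07 once control batch 2 replicate 6 was left out. Their median was 0.01 at 0.5 mGy/h. At 5 mGy/h it was 0.07 with every library and -0.13 without 5 mGy/h replicate 1, so its sign turned with that library.

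Of 9 tested genes of the p53 response to free ribosomal proteins, 3 had a p under 0.05 on the higher side at 5 mGy/h, where 3.26% of all genes had one, and 0 on the lower side. The list median was 0.12 and 0 passed the test. Without 5 mGy/h replicate 1 there were 3 on the higher side (14.1% of all genes) and 1 on the lower (10%), with a median of 0.08, and 0 passed.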

How the data were processed

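STAR aligned the reads to GRCz11 and counted them per gene, and the authors deposited these as raw counts for each library. The column of the kit's strand was used. DESeq2 1.22.2 is named in the submitters' processing notes, and its results were not used. Reads assigned to no gene, 39.9 to 45.0% a library, were left out of library sizes. Names came from a table that paired 28988 of the 32057 IDs. CPM is scaled by TMM factors found in each batch apart. Ratios of a library to its mates are on log2(CPM + 0.5), against the mean of the mates' log2 values. Each dose rate was tested within its batch with edgeR 4.0.16 (quasi-likelihood, TMM, filterByExpr) in R 4.3.3, with Benjamini-Hochberg FDR over all genes tested. Called means FDR under 0.05 and at least 1.5-fold. The test was tried on simulated counts. limma 3.58.1, Python 3.11.15, pandas 2.3.3 and matplotlib 3.10.9 were also used. Alternatives were DESeq2 1.42.0, other scalings, filters, count columns and fits, and each library left out.

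The members and lists were chosen with earlier results of these data known. Members named with full values were those of lowest p in each direction (4 a dose rate), the 3 of highest CPM, copies, stalk proteins, the 5 least like the others, and those that failed the filter; RPS15, RPS29, RPL12 and RPL13A were added after their values were seen. Some members that meet this rule, and a marker gene, are not reported here by name. DESeq2 gave no p to 46 members at 0.05 mGy/h. Same-numbered libraries of batch 2 deviated together (correlations 0.176 to 0.311 in 6 pairs, of which 5 matched their own number best). In batch 1 they did not. The replicate number was tried as a block in both batches. Coordinates and lengths were not used here, so levels are not compared between genes per length. P-values measure the spread between pools of fish.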

Additional observations from a re-analysis of the deposited data

Results flagged for a closer look

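Control batch 2 replicate 6 lay far above the other 5 controls of its batch in the share of gene counts on the members and in 25 of the members described, measured as the gap to the nearest library divided by the range of the group, for which Dixon's critical value is 0.625 in a group of 6. The share had a gap of 0.942. Among small subunit names the gaps were RPS12 at 0.974, RPS3A at 0.893, rps27.2 at 0.927, RPS6 at 0.93, RPS26 (ENSDARG00000030408) at 0.962, RPS16 at 0.935, RPS14 at 0.939, RPS9 at 0.952, RPS26 (ENSDARG00000037071) at 0.927, rps27.1 at 0.914 and rps27l at 0.866. Among large subunit names they were RPL5 (ENSDARG00000020197) at 0.964, RPL22L1 at 0.886, RPL15 at 0.957, RPL6 at 0.96, RPL5 (ENSDARG00000015862) at 0.794, RPL17 at 0.893, rplp2l at 0.893, RPL3 at 0.931, RPL22 at 0.883, RPL7 at 0.891, RPL7L1 at 0.925, RPLP0 at 0.948, RPLP1 at 0.953 and rplp2 at 0.912. At 0.05 mGy/h replicate 5 was far below the others in RPS16 (63.3 CPM, gap 0.653) and RPL3 (567 CPM, gap 0.666). For each of these groups 29 results were looked at, and chance alone marks about 1 in 20 where no library was singled out beforehand. Control batch 2 replicate 6 was already known to deviate, so its gaps describe that library and test nothing. The genes share their libraries, so the marks are not independent, and their cause was not tested.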

How the results depend on the processing

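The number of members called was 0 at every dose rate under each alternative run. Leaving out 1 library moved the median log2 fold change between -0.67 and 0.09 at 0.05 mGy/h (0.09 without control batch 2 replicate 6), between -0.09 and 0.00 at 0.5 mGy/h, and between -0.23 (without replicate 1) and 0.12 (without replicate 2) at 5 mGy/h. Of 325 values of single genes, 323 kept direction and side of the threshold. The other 2 turned with a library left out: RPS12 at 0.05 mGy/h (-1.78 to 0.29) and RPL5 (ENSDARG00000015862) at 5 mGy/h (-0.11 to 0.44). With the replicate number as a block the median at 0.05 mGy/h was -0.23. The block left 0 members called, but it also left 0 calls over all genes at each dose rate. At 0.5 mGy/h the pair correlations were -0.53 to -0.12 and at 5 mGy/h -0.22 to -0.01. The members' mean share was 1.73% at 0.05 mGy/h, 1.80% at 0.5 mGy/h and 1.89% in the controls of batch 1 without mitochondrially encoded genes in the denominator, and 1.91%, 2.00% and 2.11% without the 50 genes of highest share, the cause being the smaller denominator. Leaving out 1 library gave means of 1.58 to 1.62% at 0.05 mGy/h, 1.63 to 1.73% at 0.5 mGy/h, 1.52 to 1.90% at 5 mGy/h, 1.70 to 1.79% in the controls of batch 1 and 1.53 to 2.27% in those of batch 2. Scaled by library size alone, the median log2 ratio of control batch 2 replicate 6 was 1.67 in place of 2.01; this alternative, the pseudocount of 0.1, the unstranded counts for these ratios, the shares with a library left out, and the counts at p under 0.05 and the other lists with a library left out were chosen after seeing the data. Depth set a floor of 3 counts, up to 0.158 CPM, which bears on RPL9, RPL26 and RPL21.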
